A study of Mus musculus with 17 samples.

Results

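The SLC25 mitochondrial carriers were examined in mRNA libraries of the gastrocnemius, a calf muscle of the mouse. Members were the protein-coding genes whose symbol is Slc25a followed by a number, and 47 of the 45777 genes in the table met this rule. The libraries came from 17 individually housed male C57BL/6J mice, all fed AIN-93G for 12 weeks. Mature mice (n = 7) went from 8 to 21 weeks of age over the study and Middle-aged mice (n = 6) from 48 to 61 weeks. ALL mice (n = 4) were as old as Middle-aged mice, and in their AIN-93G 3% allulose, a rare sugar and an epimer of fructose, took the place of cellulose. In the labels the ages read 8 weeks and 12 months. Middle-aged against Mature therefore compared ages on the same diet, and ALL against Middle-aged compared diets at the same age. ALL against Mature differed in age and diet at once, since no Mature mice received allulose. Nothing was measured in females, and each value came from whole muscle, where fewer cells of a type and less RNA per cell cannot be told apart.

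The inner membrane of the mitochondrion is closed to most metabolites, and the SLC25 carriers are the proteins that let nucleotides, phosphate, carboxylic acids, amino acids, acylcarnitines, iron and cofactors through it. Most work by exchange, taking one molecule in as another goes out. In skeletal muscle the family is best known for the ADP/ATP and phosphate carriers that serve ATP synthesis, for the malate-aspartate shuttle that brings the reducing power of glycolysis into the matrix, and for the carnitine carrier that admits fatty acids. A few members sit in other membranes, among them Slc25a17 in the peroxisome and Slc25a46 in the outer mitochondrial membrane.

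Between 49774656 and 72640511 counts were assigned to genes per library. Genes of the mitochondrial genome took 15.2% to 23.5% of these counts. Mature 1, 2 and 3, Middle-aged 1, 3 and 4 and ALL 1 had shares over 20%, and the other 10 libraries had lower ones. The first 6 of these libraries also stood apart from the rest of their group in earlier results of these data, so the calls of carriers and of the other genes named here are given without them where that ended them. ALL 1, with a share of 21.8%, stayed in those fits. The labels give the tissue as gastrocnemius, while the extraction text also names adipose tissue and liver. Fast-fibre genes were abundant in every library, with Myh4 at 39133 to 60511 CPM, the count relative to the scaled library total, and the adipocyte gene Adipoq was at 0.355 to 17.2 CPM. Of 7 hepatocyte genes, Ttr, Serpina1a and Fgb had 0 counts in every library, while Alb reached 0.471 CPM, Apoa1 0.0939 CPM, Apoa2 0.229 CPM and Cyp2e1 0.596 to 15.1 CPM. Summed over the list, hepatocyte CPM ran from 1.21 to 15.3 for Mature mice, from 0.721 to 11.0 for Middle-aged mice and from 0.596 to 2.93 for ALL mice. The brown fat gene Ucp1 had 0 counts in every library.

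Promoter sequences from RefSeq (GRCm38.p6) were matched for 36 of the 47 members, which have 46 annotated starts, and each sequence runs from 250 bases before to 50 bases after a start. Shown here are the promoters of Slc25a25, the member with the greatest difference between ages, and of Slc25a28, a mitochondrial iron importer that also differed. Slc25a25 lies on the minus strand of chromosome 2 and has 3 annotated starts, of which the third lies nearest to the end of the gene. Its promoters span chr2:32451421-32451720, chr2:32431102-32431401 and chr2:32424017-32424316, and the promoter of Slc25a28 spans chr19:43674832-43675131 on the minus strand. Capitals mark the letters TGACGTCA, the cAMP response element.
Slc25a25 start 1: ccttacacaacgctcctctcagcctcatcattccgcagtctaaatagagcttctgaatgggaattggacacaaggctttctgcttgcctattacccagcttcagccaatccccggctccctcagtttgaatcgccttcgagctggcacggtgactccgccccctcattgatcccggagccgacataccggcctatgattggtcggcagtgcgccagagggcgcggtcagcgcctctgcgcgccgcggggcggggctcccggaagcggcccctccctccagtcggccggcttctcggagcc
Slc25a25 start 2: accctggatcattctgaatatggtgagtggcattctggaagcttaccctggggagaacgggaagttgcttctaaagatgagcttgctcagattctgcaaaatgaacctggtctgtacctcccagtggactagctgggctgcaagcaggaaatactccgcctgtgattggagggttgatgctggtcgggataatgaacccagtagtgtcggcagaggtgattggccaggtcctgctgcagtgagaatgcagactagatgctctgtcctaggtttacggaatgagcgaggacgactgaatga
Slc25a25 start 3: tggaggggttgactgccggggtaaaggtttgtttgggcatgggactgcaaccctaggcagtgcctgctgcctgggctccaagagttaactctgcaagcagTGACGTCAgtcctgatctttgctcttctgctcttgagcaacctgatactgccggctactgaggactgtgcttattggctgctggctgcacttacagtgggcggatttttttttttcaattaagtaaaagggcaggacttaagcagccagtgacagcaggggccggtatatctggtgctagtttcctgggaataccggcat
Slc25a28: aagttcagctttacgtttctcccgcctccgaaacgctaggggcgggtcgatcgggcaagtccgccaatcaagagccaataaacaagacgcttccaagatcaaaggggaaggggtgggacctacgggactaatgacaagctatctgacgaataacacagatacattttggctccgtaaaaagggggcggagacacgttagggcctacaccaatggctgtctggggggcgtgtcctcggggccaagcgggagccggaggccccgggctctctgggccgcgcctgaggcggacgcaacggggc
The element was present at -150 from the third start of Slc25a25. Searched on both strands, TGACGTCA was found in 1.79% of 32851 promoters of this length in the table and in 2 of the 46 member promoters, those of Slc25a25 and Slc25a36. The E-box CACGTG was found in 7.15% of all promoters and in 8 of the 46 member promoters, which belong to 7 members. The letters TNAAGGTCA, bound by estrogen-related receptors, and the NRF1 element were found in 1.28% and 0.971% of all promoters and in 0 of the 46 member promoters. A match is only a description of letters. The counts are per gene, so which start each transcript used was not measured.

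Slc25a4 (ANT1), the ADP/ATP carrier of heart and muscle, dominated the family. Levels between genes are compared in TPM, the value the authors normalized for gene length and library size. Slc25a4 stood at 3874 ± 178 TPM in Mature, 4009 ± 237 in Middle-aged and 4183 ± 117 in ALL mice (SD). It made up 69.7% to 72.8% of the TPM of all members in every mouse, and together with the phosphate carrier Slc25a3 it made up 83.8% to 86.0%. Slc25a3 (mean over the 17 mice 736 TPM), Slc25a12 (194 TPM), Slc25a11 (182 TPM) and Slc25a20 (68.9 TPM) followed. The ranges of Slc25a4 and Slc25a3 did not overlap each other or those below them, and Slc25a20 was below Slc25a11 in all 17 mice. Slc25a12 was above Slc25a11 in only 12 of 17 mice, so these neighbours did not differ beyond their spread. From Slc25a28 (35.3 TPM) downward each neighbour among the first 14 members overlapped the next, and Slc25a25 ranged from 5.10 to 59.9 TPM. In all, 4 members had a mean over 100 TPM, 32 lay from 1 to 100 TPM and 11 lay under 1 TPM.

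**Figure D1:**
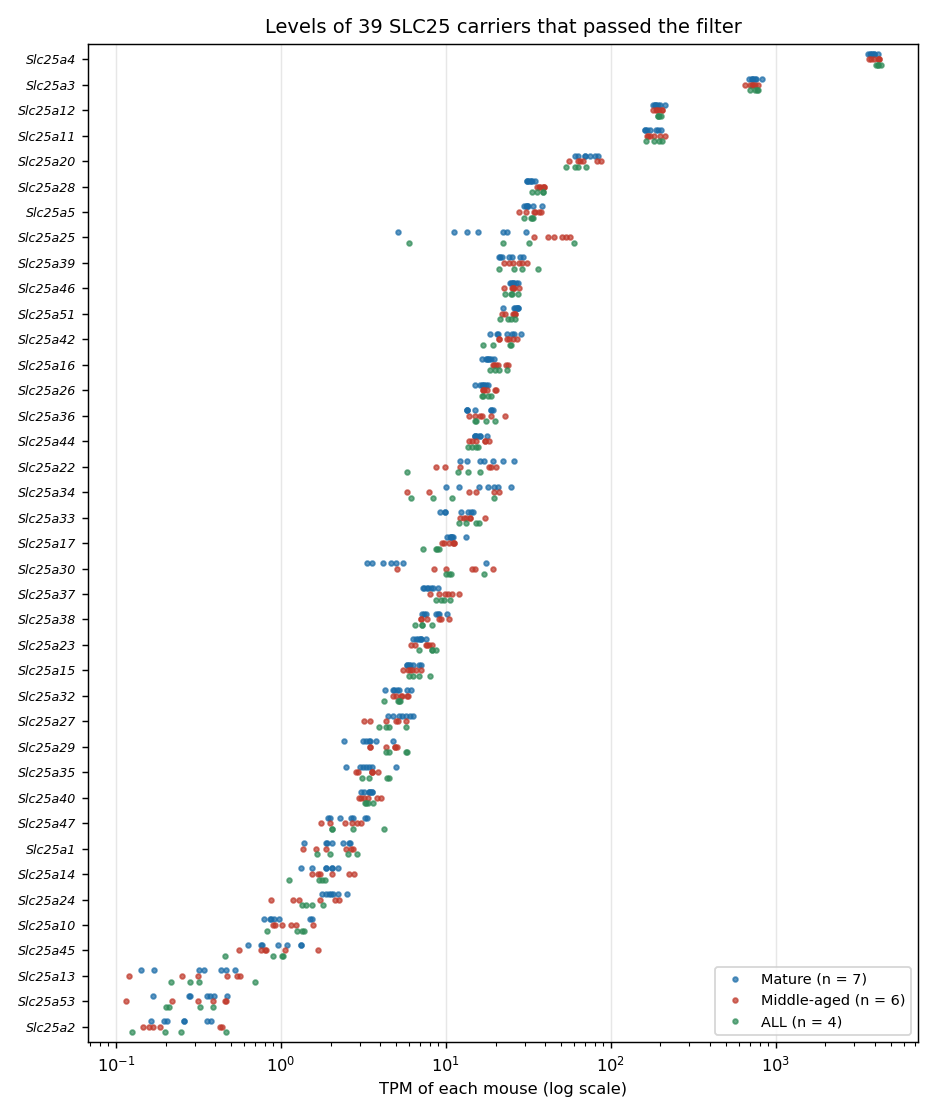
TPM of each mouse (log scale) for 39 of the 40 carriers that passed the filter, ordered by mean, with Mature (n = 7), Middle-aged (n = 6) and ALL (n = 4) mice in different colours. Slc25a4 stands alone with a mean of 3994 TPM, Slc25a3 follows with a mean of 736 TPM, and most other carriers lie below 100 TPM with groups that overlap.

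Closely related carriers were expressed very unequally. Slc25a5 (ANT2), the ADP/ATP carrier of proliferating cells, had 27.6 to 38.4 TPM, and the TPM of Slc25a4 was 97.6 to 145 times that of Slc25a5 in each mouse. Slc25a31 (ANT4), the ADP/ATP carrier of the testis, had 10 counts in 3 of the 17 mice. Slc25a12 (aralar) and Slc25a13 (citrin) both exchange aspartate for glutamate, and Slc25a12 exceeded Slc25a13 by 279 to 1710 times in TPM. Slc25a13 was at 0.119 to 0.691 TPM, from 14 to 89 counts per library. Reads of Slc25a5 were counted apart from its pseudogene Slc25a5-ps, which held 0 to 4 counts per library and was not a member.

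The 7 other members did not pass the filter on low counts and were not tested. The glutamate carrier Slc25a18 had 98 counts in 14 mice, the oxoadipate carrier Slc25a21 had 19 counts in 5 mice, and Slc25a43 had 27 counts in 9 mice. Slc25a31 is given above, Slc25a41, of the ATP-Mg/phosphate carriers, had 8 counts in 2 mice, and Slc25a48 had 2 counts, both in 1 ALL mouse. Slc25a54 had 0 counts in 17 libraries, and a total of 0 allows a level of up to 3 counts over the 17 libraries together (counting error only). The 40 others passed and were tested with all 16731 genes that passed.

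Added together, the 47 members made up 4901 ± 306 CPM in Mature (n = 7), 5109.6 ± 622 in Middle-aged (n = 6) and 5320.4 ± 124 in ALL mice (n = 4, SD). The sums ran from 4346 to 5197 CPM, from 4499 to 5849 CPM and from 5184 to 5481 CPM. Middle-aged mice overlapped both other groups and held the lowest sums beside Mature 6 and the highest of all. The mean sums without the 6 libraries that stand apart were 4769.7, 4611 and 5394 CPM, with Middle-aged below Mature mice. In TPM the sums over all 17 mice were 5448 ± 241, 5614 ± 292 and 5787 ± 145. Without Slc25a4 the sums were 1885 ± 115 CPM in Mature, 1962 ± 196 in Middle-aged and 1974 ± 56.7 in ALL mice. The means of Middle-aged and ALL mice thus lay close together once this gene was left out. The sums are a description, with no test.

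Between Middle-aged and Mature mice, 4 of the 40 carriers tested were called, all higher with age: the mitochondrial iron importers Slc25a37 (mitoferrin-1) and Slc25a28 (mitoferrin-2), the coenzyme A-linked carrier Slc25a16 and the ATP-Mg/phosphate carrier Slc25a25. Slc25a25 was 2.68-fold higher, and the other 3 were 15.4% to 25.2% higher. The 4 calls are 10% of the carriers tested, and 10.3% of all genes tested were called (4.75% higher and 5.54% lower), so the share of carriers called was near that of all genes. The carriers with a logFC above 0 numbered 25 of 40 (62.5%, against 52.0% of all genes). The median logFC of the 40 carriers was 0.03, against 0.01 over all genes. At an unadjusted p under 0.05 there were 8 carriers (20%), against 24.3% of all genes. The groups did not overlap for 3 carriers, all higher (background 1.83%), and for 0 carriers that were lower (background 2.21%). Without the 6 libraries named above, 1 carrier, Slc25a37, was called, against 2.82% of all genes in that fit.

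**Figure D2:**
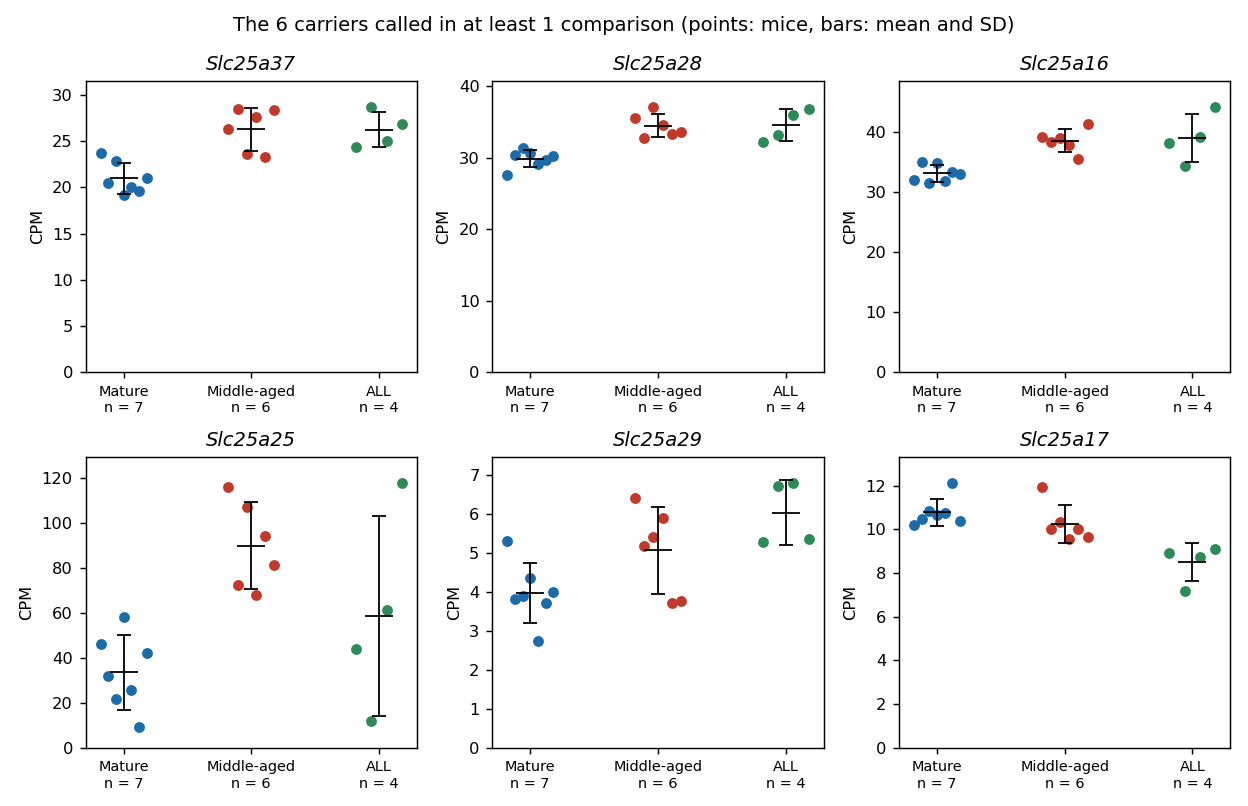
CPM of the 6 carriers called in at least 1 comparison. Points are mice, and bars are the mean and SD of Mature (n = 7), Middle-aged (n = 6) and ALL (n = 4) mice. The Middle-aged mice lie at 68.1 to 116 CPM of Slc25a25, all above the Mature mice, while the 4 ALL mice spread from 11.7 to 118.

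Among the iron and glutathione carriers, Slc25a37 and Slc25a28 move iron from the intermembrane space to the matrix, where it is built into heme and iron-sulfur clusters. Mitoferrin-1 is the form needed by developing red cells, and mitoferrin-2 is the broadly expressed one. Slc25a37 was at 19.2 to 23.7 CPM in Mature mice (median 20.4) and at 23.2 to 28.5 CPM in Middle-aged mice (median 27.0). The ALL mice had 24.4, 28.6, 25.1 and 26.9 CPM. Only the lowest Middle-aged mice reached down to the highest Mature mouse, and all 4 ALL mice were above every Mature mouse. The logFC with age was 0.32 (SE 0.068, 95% interval 0.18 to 0.47, adjusted p = 0.00443, edgeR quasi-likelihood test with Benjamini-Hochberg adjustment). This call was kept in all 28 alternative settings, with adjusted p from 0.000278 to 0.027.

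Slc25a28 was at 27.6 to 31.3 CPM in Mature mice (median 30.3) and at 32.7 to 37.0 CPM in Middle-aged mice (median 34.1). The ALL mice had 32.1, 33.1, 36.0 and 36.8 CPM. Every Middle-aged and every ALL mouse was above every Mature mouse. The logFC with age was 0.21 (SE 0.049, adjusted p = 0.0108, edgeR quasi-likelihood test). Without Mature 1 to 3 and Middle-aged 1, 3 and 4 it was 0.14 (adjusted p = 0.328) and no longer called, in a fit of 4 Mature and 3 Middle-aged mice. Slc25a39, which imports glutathione, had 25.0 ± 3.91 CPM in Mature and 28.6 ± 3.69 in Middle-aged mice and was not called (logFC 0.19, adjusted p = 0.329, edgeR), and its paralogue Slc25a40 had 5.57 ± 0.189 and 5.63 ± 0.501 CPM (logFC 0.01).

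Erythroid genes, among them the globins, summed to 141 to 444 CPM in Mature mice, 139 to 269 CPM in Middle-aged mice and 130 to 494 CPM in ALL mice. Of 5 erythroid genes tested, 0 were called in the age comparison, and their median logFC was -0.43. Red cell precursors hold much mitoferrin-1, so these values are given beside it, and their part in the result was not tested. Of the 7 heme and iron-sulfur partners tested, such as the iron-sulfur scaffold Iscu and ferrochelatase, 0 were called with age. Iscu had 70.4 CPM in Mature and 80.6 CPM in Middle-aged mice (logFC 0.19, adjusted p = 0.0901, edgeR).

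Of the 9 nucleotide and cofactor carriers tested, Slc25a16 was called with age, and it is linked to the coenzyme A of the matrix. Slc25a16 was at 31.4 to 35.0 CPM in Mature mice (median 32.9) and at 35.4 to 41.2 CPM in Middle-aged mice (median 38.6). The ALL mice had 38.2, 34.2, 39.1 and 44.0 CPM. The Middle-aged mice were all above the Mature mice, and ALL 2 fell within the Mature range. The logFC with age was 0.22 (SE 0.056, adjusted p = 0.0172, edgeR quasi-likelihood test). The call was lost without Middle-aged 6 (logFC 0.19, adjusted p = 0.053) and without the 6 libraries that stand apart (logFC 0.20, adjusted p = 0.28). Slc25a42, the coenzyme A and ADP exchanger, had a logFC of 0.03, and Slc25a51, which imports NAD, had the smallest spread within groups of all 40 members (SD 0.068 on the log2 scale) and a logFC of -0.07, not called. The pyrimidine nucleotide carriers Slc25a33 (logFC 0.22) and Slc25a36 (0.09), the S-adenosylmethionine carrier Slc25a26 (0.11) and the folate carrier Slc25a32 (0.06) were not called either. Of the 6 NAD and folate partners tested, 0 were called with age.

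The ATP-Mg/phosphate carriers are calcium-regulated exchangers that set the amount of adenine nucleotide in the matrix, and mice without Slc25a25 are known for poor endurance. Slc25a25 was at 9.13 to 58.2 CPM in Mature mice (median 31.9) and at 68.1 to 116 CPM in Middle-aged mice (median 87.9). The ALL mice had 44.1, 11.7, 61.2 and 118 CPM. Every Middle-aged mouse was above every Mature mouse, and the ALL mice ranged from the bottom of the Mature group to above the highest Middle-aged mouse. The logFC with age was 1.42 (SE 0.40, 95% interval 0.59 to 2.25, adjusted p = 0.0265, edgeR quasi-likelihood test). Slc25a25 also had the greatest spread within groups of the 40 members, with an SD of 0.893 on the log2 scale against a median of 0.208 over members and 0.216 over all genes. The age call was lost without Mature 3 (logFC 1.34, adjusted p = 0.0553), Middle-aged 1 (logFC 1.33, adjusted p = 0.0591), Middle-aged 3 (logFC 1.35, adjusted p = 0.0551) or the 6 libraries that stand apart (logFC 1.28, adjusted p = 0.309).

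The other ATP-Mg/phosphate carriers stayed below the threshold with age. Slc25a24 had 4.06 ± 0.477 CPM in Mature and 3.08 ± 0.897 in Middle-aged mice (logFC -0.40, adjusted p = 0.109, edgeR). Slc25a23 had 13.6 ± 0.986 and 14.5 ± 1.31 CPM (logFC 0.09).

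Of the 3 ADP/ATP and phosphate carriers tested, none was called in the age comparison, and none had an unadjusted p under 0.05. Slc25a4 was at 2658 to 3213 CPM in Mature mice (median 3021) and at 2733 to 3634 CPM in Middle-aged mice (median 3111), with overlapping ranges. Its logFC was 0.06 (95% interval -0.11 to 0.23). Slc25a5 had a logFC of 0.07 (95% interval -0.11 to 0.25), and Slc25a3 had 604 ± 42.7 and 589 ± 58.7 CPM (logFC -0.04, 95% interval -0.18 to 0.11). Of the 4 ADP/ATP exchange partners tested, such as mitochondrial creatine kinase Ckmt2, 0 were called. The outer membrane channel Vdac2, through which these nucleotides pass to the cytosol, was lower with age (logFC -0.21, adjusted p = 0.0326, edgeR; without the 6 libraries -0.31, adjusted p = 0.0662), and Vdac1 and Vdac3 were not called.

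Of the 12 carboxylate, carnitine and amino acid carriers tested, none was called with age. The malate-aspartate shuttle pairs the oxoglutarate/malate carrier Slc25a11 with the aspartate/glutamate carriers. Slc25a11 had 193 ± 21.6 CPM in Mature and 200 ± 33.5 in Middle-aged mice (logFC 0.06, 95% interval -0.15 to 0.26). Slc25a12 had 360 ± 25.7 and 366 ± 39.7 CPM (logFC 0.03, 95% interval -0.12 to 0.17). The interval of Slc25a13 was far wider, from -0.65 to 0.97, at 14 to 89 counts per library. Of the 4 shuttle enzymes and the 5 carnitine shuttle enzymes tested, 0 were called in any of the 3 comparisons. The carnitine/acylcarnitine carrier Slc25a20 had 73.4 ± 9.78 CPM in Mature and 72.5 ± 17.5 in Middle-aged mice (logFC -0.02, 95% interval -0.29 to 0.25).

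Of the 9 carriers tested that have other or uncertain substrates, none was called with age. Slc25a30, a relative of the uncoupling proteins, was at 3.31 to 17.5 CPM in Mature mice (median 4.94) and at 5.02 to 22.6 CPM in Middle-aged mice (median 12.5). The ALL mice had 11.6, 10.8, 10.6 and 18.6 CPM. The overlap came from Mature 1, since the other 6 Mature mice were at 3.31 to 5.98 CPM, and from Middle-aged 5, the lowest of its group. The logFC with age was 1.03 (SE 0.37, adjusted p = 0.0807, edgeR quasi-likelihood test). It was 1.53 (adjusted p = 0.00213) without Mature 1 and 1.198 (adjusted p = 0.0349) without Middle-aged 5, and the likelihood ratio test of edgeR also called it (adjusted p = 0.0396). In the other 25 of 28 settings it was not called with age, among them the fit without the 6 libraries that stand apart, which include Mature 1.

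**Figure D3:**
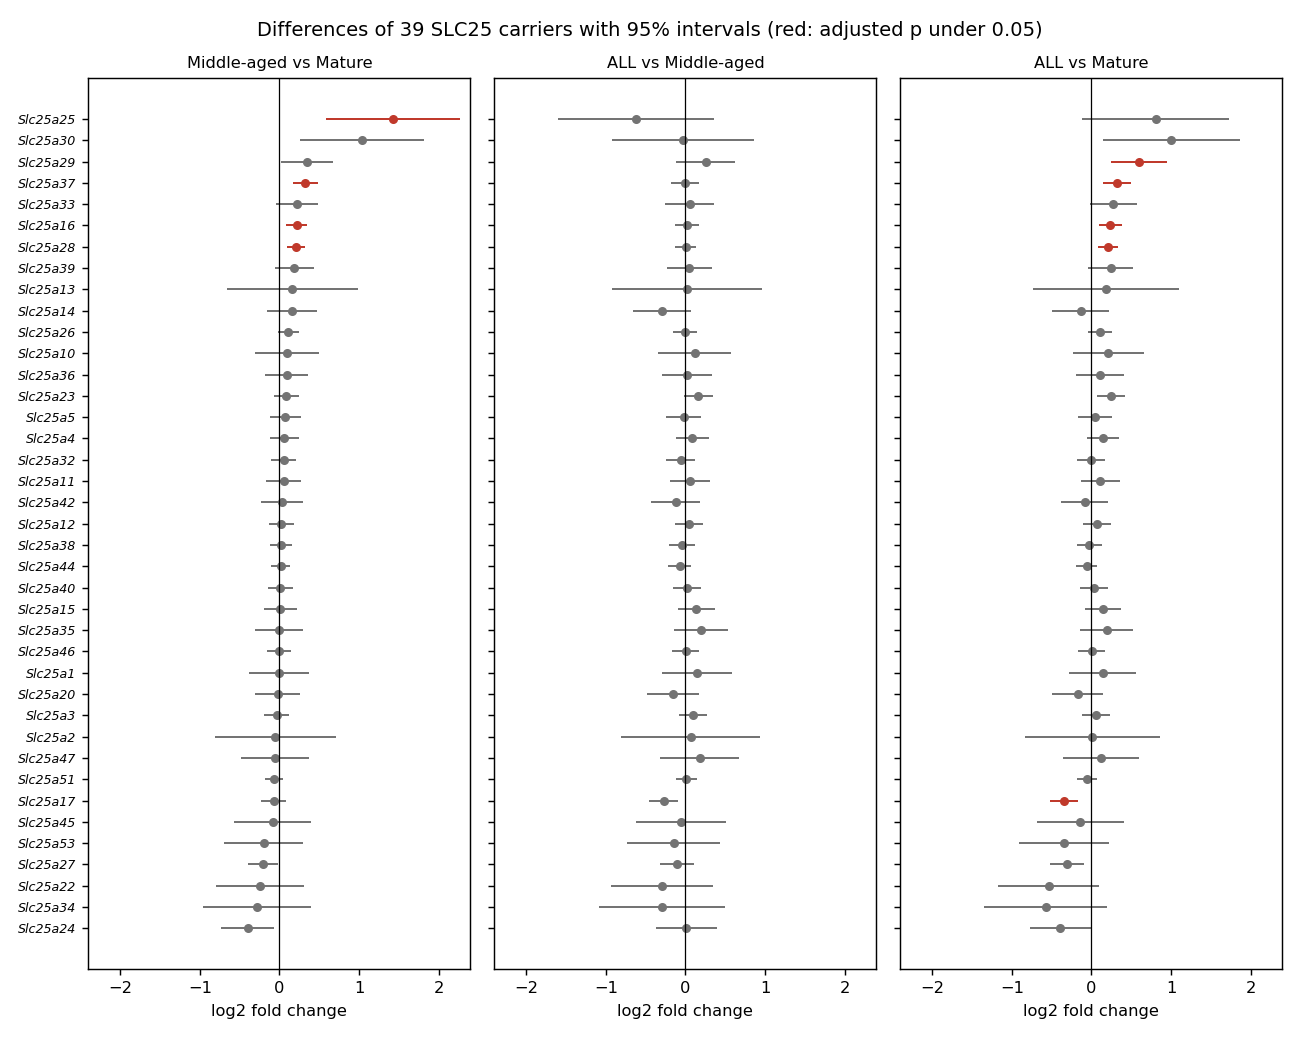
Log2 fold change and 95% interval of 39 of the 40 carriers tested in each of the 3 comparisons, in the order of the age comparison, with adjusted p under 0.05 in red. Red points number 4, 0 and 5, and Slc25a25 has the highest value in the age comparison (1.42).

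Allulose against the Middle-aged diet gave 0 calls among the 40 carriers, and 0% of all genes tested were called by edgeR. DESeq2 also called 0 carriers, and it called 2 of all genes (0.012%). At an unadjusted p under 0.05 there was 1 carrier (2.5%), against 3.6% of all genes. This carrier was Slc25a17, a peroxisomal membrane protein that carries coenzyme A, FAD and NAD. It had 8.93, 7.19, 8.74 and 9.08 CPM in ALL mice and 9.57 to 11.9 CPM in Middle-aged mice (median 9.9998). The ALL mice were all below the Middle-aged mice, which was so for 0.227% of all genes, and below the Mature mice as well (10.2 to 12.1 CPM, median 10.6). The logFC was -0.27 (SE 0.081, 95% interval -0.44 to -0.10), with an adjusted p of 1 by edgeR, so it did not pass the test over all genes.

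For the carriers that differed with age, the ALL and Middle-aged levels lay close together in 3 of 4 cases. The logFC of ALL against Middle-aged was 0.00 for Slc25a37 (95% interval -0.17 to 0.16), 0.00 for Slc25a28 (-0.12 to 0.12) and 0.02 for Slc25a16 (-0.12 to 0.15). In percent these intervals run from -10.9% to 11.9%, from -7.79% to 8.84% and from -8.02% to 11.2%. For Slc25a25 the logFC was -0.62 (SE 0.46, 95% interval -1.58 to 0.35), and the 4 ALL mice differed too much from each other for a direction. Its logFC ran from -1.21 to -0.27 as single mice were left out. Slc25a4 had 3346 ± 93.4 CPM in ALL mice (logFC 0.09 against Middle-aged, 95% interval -0.10 to 0.28), Slc25a3 had 629 ± 32.4 CPM (logFC 0.09) and Slc25a5 had 25.2 ± 1.70 CPM (logFC -0.02). In the shuttles the logFC was 0.06 for Slc25a11, 0.04 for Slc25a12, 0.02 for Slc25a13 and -0.15 for Slc25a20, none of them called.

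Against Mature mice, 5 of the 40 carriers were called in ALL mice (12.5%, background 6.5%), with 4 higher (background 3.32%) and 1 lower (background 3.18%). At an unadjusted p under 0.05 there were 10 carriers (25%), against 22.7% of all genes. This comparison shares its Mature mice with the age comparison. Slc25a37 had a logFC of 0.32 (SE 0.076, adjusted p = 0.0164), Slc25a28 of 0.21 (SE 0.055, adjusted p = 0.0294) and Slc25a16 of 0.23 (SE 0.063, adjusted p = 0.0319, edgeR quasi-likelihood test). Beside them the age comparison gave 0.32, 0.21 and 0.22. Slc25a25, at 1.42 with age, was at 0.81 (SE 0.43, adjusted p = 0.283, edgeR) and was not called in ALL mice. The groups did not overlap for 3 carriers that were higher (background 3.2%), Slc25a37, Slc25a28 and Slc25a4, and for 2 that were lower (background 2.84%), Slc25a17 and Slc25a27. Slc25a4 (logFC 0.15, adjusted p = 0.337) and Slc25a27, a relative of the uncoupling proteins (logFC -0.31, adjusted p = 0.06), were not called by edgeR.

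Slc25a29, which carries arginine and lysine, passed the test in this comparison and not in the age comparison. It was at 2.74 to 5.30 CPM in Mature mice (median 3.89) and had 5.28, 6.72, 6.79 and 5.35 CPM in ALL mice, with Middle-aged mice between at 3.71 to 6.41 CPM (median 5.29). Mature 1 reached the lowest ALL mouse, and the other Mature mice were lower. The logFC was 0.60 (SE 0.16, adjusted p = 0.034, edgeR quasi-likelihood test). Against the age logFC of 0.35 (adjusted p = 0.149), the difference between the diets was 0.25 (SE 0.17, adjusted p = 1). Slc25a17 was the carrier that was lower, with a logFC of -0.34 (SE 0.079, adjusted p = 0.0147, edgeR), after -0.07 (adjusted p = 0.574) with age.

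Each of these 5 calls was lost when 1 or more single libraries, ALL or Mature, were left out in turn. Slc25a37 was lost without ALL 2 (adjusted p = 0.0608) or ALL 4 (0.0547), and Slc25a17 was lost without ALL 2 (logFC -0.27, adjusted p = 0.0521). Slc25a28 was lost without Mature 1 (0.0504), Mature 6 (0.0519), ALL 3 (0.113) or ALL 4 (0.119). Slc25a16 was lost without Mature 1 (0.0515), Mature 3 (0.0609), Mature 6 (0.0526), ALL 1 (0.0525), ALL 3 (0.0948) or ALL 4 (logFC 0.16, 0.143), and without Mature 5 it stood just inside the threshold (0.05 after rounding). Slc25a29 was lost without Mature 2 (0.0558), Mature 3 (0.0563), Mature 6 (0.0649), ALL 2 (0.0993), ALL 3 (0.121) or ALL 4 (0.0528). Conversely, Slc25a30, with a logFC of 1.01 (adjusted p = 0.14), was called without Mature 1 (logFC 1.498, adjusted p = 0.00744). The logFC of these carriers kept its sign in each of these fits. Without the 6 libraries that stand apart, Slc25a28 (0.0986) and Slc25a16 (0.146) were lost and Slc25a30 was called (0.0117), and with only the 2 groups compared Slc25a28 (0.0568) and Slc25a16 (0.0671) were lost. With a block on replicate number 0 carriers were called (3.68% of all genes), and 3 were called with library size scaling (4.6% of all genes) or with no filter (2.87% of all genes). The number of calls was 3 without Mature 3 and 2 without Mature 6, ALL 2, ALL 3 or ALL 4. Of all genes, 1087 were called in the main fit and 829 without Mature 3. Without Mature 6, ALL 2, ALL 3 and ALL 4 they numbered 707, 739, 430 and 650, so fewer calls were not particular to the carriers. All p-values here are adjusted values of the edgeR quasi-likelihood test.

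Some carriers varied widely between mice of the same group. After Slc25a25, the SD within groups on the log2 scale was highest for Slc25a13 (0.810), Slc25a30 (0.718) and Slc25a34 (0.670). Slc25a34, a carrier of unknown substrate, was at 33.8, 11.4, 26.1, 34.2, 20.2 and 8.68 CPM in Middle-aged 1 to 6. The mitochondrial shares of these 6 libraries were 23.5%, 16.3%, 21.3%, 21.1%, 17.7% and 15.2%, so that the 3 libraries with a share over 20% were the 3 highest. Slc25a22, a glutamate carrier, was at 26.1 to 40.1 CPM in the 7 libraries of all groups with a share over 20% and at 9.26 to 24.6 CPM in the other 10. Slc25a20 was at 75.6 to 98.0 CPM in those 7 and at 53.7 to 71.2 CPM in the other 10, again without overlap. Slc25a11 (210 to 239 CPM against 163 to 224 CPM) and Slc25a34 (26.1 to 40.5 CPM against 8.68 to 30.7 CPM) overlapped. Slc25a37 (20.4 to 27.7 CPM against 19.2 to 28.6 CPM) and Slc25a25 (21.6 to 116 CPM against 9.13 to 118 CPM) showed no such separation. How many of all genes separate these libraries in the same way was not counted, so the separation is not shown to be particular to these carriers. These carriers and libraries were chosen after their values were seen, so no test is given, and what the share itself reflects was not tested.

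**Figure D4:**
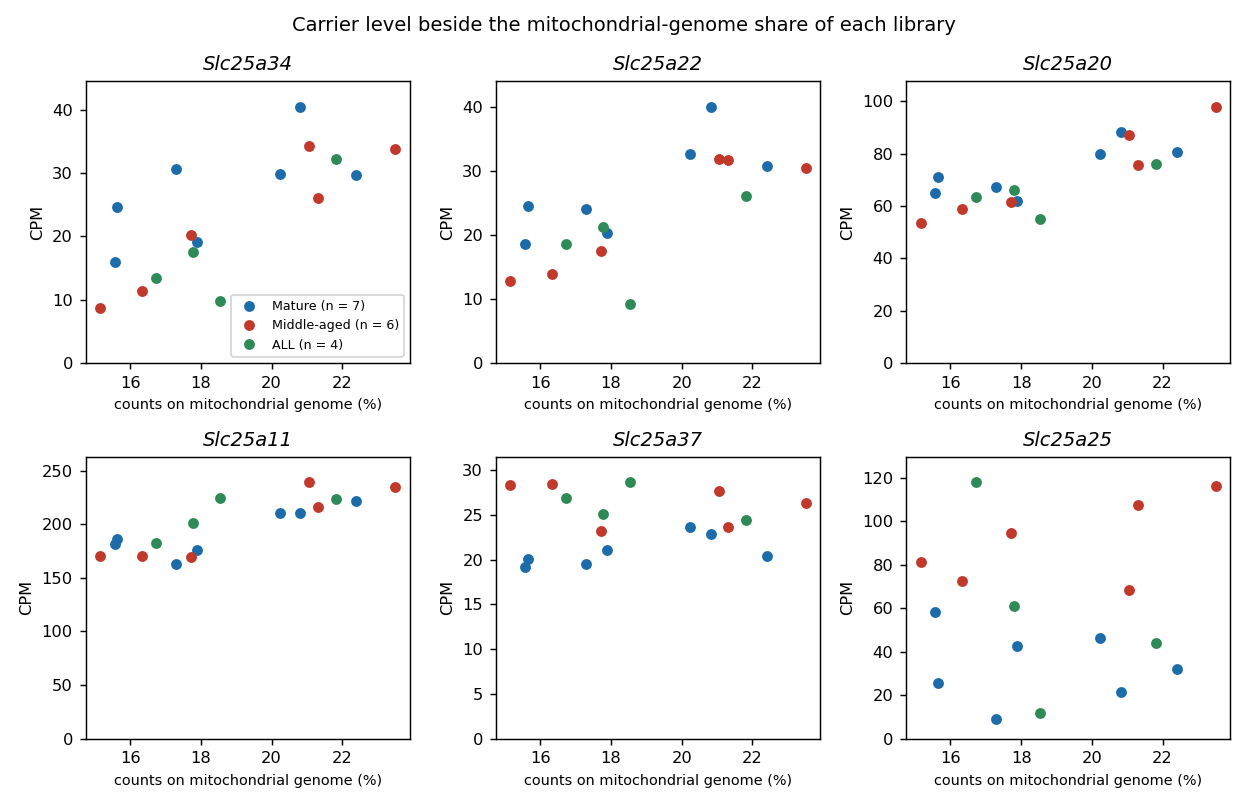
CPM of 6 carriers against the share of counts on the mitochondrial genome (%) in each library, coloured by group (Mature n = 7, Middle-aged n = 6, ALL n = 4). Slc25a22 and Slc25a20 are higher in all 7 libraries with a share over 20% than in the other 10, while Slc25a37 and Slc25a25 are not. How many of all genes separate in this way was not counted.

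Genes for the import of carriers and other transporters were read from the same fit. Of 16 import genes, 3 were higher with age (4.75% of all genes were called higher): Timm22, the pore of the carrier translocase (logFC 0.23, adjusted p = 0.0247), the small chaperone Timm8b (0.27, adjusted p = 0.0271) and the receptor Tomm20 (0.18, adjusted p = 0.0361, edgeR). In ALL against Mature mice, Tomm20 was higher (logFC 0.25, adjusted p = 0.0183). Of 18 other inner membrane transporters, the calcium uniporter regulator Micu3 was higher with age (logFC 0.29, adjusted p = 0.00683) and the uniporter subunit Smdt1 was higher in ALL than in Mature mice (0.23, adjusted p = 0.0487). Of 4 carriers under other symbols, the uncoupling protein gene Ucp2 was lower in ALL than in Mature mice, at 5.27 and 8.91 CPM (logFC -0.76, adjusted p = 0.00986, edgeR). Ucp3, the muscle form, was at 248 to 384 CPM in Mature mice, 277 to 507 CPM in Middle-aged mice and 87.7 to 459 CPM in ALL mice and was not called. Of the heme and iron-sulfur partners, Iscu was higher in ALL than in Mature mice (logFC 0.29, adjusted p = 0.0369, edgeR). Without the 6 libraries that stand apart, 0 of the 3 import genes remained called with age (Timm22 adjusted p = 0.452, Timm8b 0.344, Tomm20 0.485), nor did Micu3 (0.175) or, in ALL against Mature mice, Tomm20 (0.11), Smdt1 (0.291) and Ucp2 (0.0515), and Iscu was called (0.0387, edgeR). With single mice left out, the age call was lost in 5 of 17 fits for Timm22, 8 for Timm8b, 11 for Tomm20, 5 for Vdac2 and 0 for Micu3, and the call of ALL against Mature mice was lost in 14 for Smdt1, 7 for Iscu, 1 for Tomm20 and 0 for Ucp2.

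Markers of other cells moved between the ages. With age, 4 of 5 endothelial genes fell (summed level 174 to 240 CPM in Mature and 117 to 159 CPM in Middle-aged mice), and 4 of 4 Schwann cell genes fell (63.9 to 374 CPM and 32.2 to 78.6 CPM). Of all genes tested, 5.54% were called lower with age. Of 7 fast-fibre, 7 slow-fibre, 7 adipocyte and 4 macrophage genes, 0 were called with age, and slow-fibre genes summed to 136 to 2550 CPM over the 17 mice. In ALL against Mature mice, the adipocyte genes Cfd (logFC -2.57) and Fabp4 (-0.61) were lower, as was Cyp2e1 of the hepatocyte list (-2.36), and 4 endothelial genes and Pmp22 of the Schwann list were lower too. Of all genes tested, 3.18% were called lower in ALL than in Mature mice. The adipocyte genes summed to 184 to 309 CPM in Mature mice, 125 to 325 CPM in Middle-aged mice and 121 to 149.96 CPM in ALL mice. Most of each sum was Fabp4, with means of 187, 141 and 123 CPM, so the sums say little about the other 6 genes. In ALL against Middle-aged mice the 7 adipocyte genes had logFC from -2.82 to -0.21 (median -2.07), and 0 were called. The endothelial gene Tek was lost without the 6 libraries in both comparisons (adjusted p = 0.208 with age and 0.106 in ALL against Mature mice, edgeR), and the other marker genes that had been called remained called. With single mice left out, the 8 age calls held in all 17 fits, which include those without an ALL mouse. In ALL against Mature mice, by contrast, Cfd was lost in 3 fits, Fabp4 in 14, Cyp2e1 in 8, Tek in 7 and Pmp22 in 4. The part of these cell types in the differences of the carriers was not tested.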

How the data were processed

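Stranded mRNA libraries of the gastrocnemius were sequenced for 7 Mature, 6 Middle-aged and 4 ALL mice. The authors deposited raw counts per gene and TPM, their value normalized for gene length and library size. The paper names STAR and StringTie, whereas the submitters' processing notes name Trimmomatic 0.38, FastQC 0.11.7, HISAT2 2.1.0, featureCounts and mm10, so the counter is stated in more than 1 way. Columns of mice outside the 3 groups (10 of counts and 8 of TPM) and 17 columns of FPKM were not used.

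The counts were fitted with edgeR 4.0.16 (R 4.3.3). The filter filterByExpr removed 29046 genes and left 16731, libraries were scaled by TMM, and all 17 mice entered 1 quasi-likelihood fit by group (common dispersion 0.0332). A logFC is the log2 fold change, p-values were adjusted over all 16731 genes by the Benjamini-Hochberg method, and an FDR under 0.05 was called. CPM is the count relative to the scaled library total. TPM was used only to compare levels between genes, with no test. Total counts per library were 49774656 to 72640511, and the median standard error of a logFC over the members was 0.106 for Middle-aged against Mature, 0.123 for ALL against Middle-aged and 0.119 for ALL against Mature. The labels name each mouse as a separate sample, and the replicate numbers were not used for pairing.

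Alternatives were DESeq2 1.42.0, library size or RLE scaling, no filter, 2 groups only, the likelihood ratio test, a replicate block, the mitochondrial share as a covariate, mitochondrial-genome genes removed, a prior count of 2, the 6 libraries that stand apart left out, and each mouse left out in turn. The last 2 were extended to the called genes outside the family after the data had been seen. The code was tested on simulated data. Plots were made with matplotlib 3.10.9 in Python 3.11.15.

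Named with values were the members called in any comparison, the 6 with the highest level per length, the carriers of the ADP/ATP, phosphate, malate-aspartate, carnitine and iron steps, and the members removed by the filter. Slc25a22, Slc25a30, Slc25a34 and the uncalled members given beside them were named after their values were seen. Members and lists were chosen with earlier results of these data known. Collagen-fed mice were not analysed here, and 1 member is counted but not reported singly here.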

Additional observations from a re-analysis of the deposited data

Results flagged for a closer look

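Within groups, 48 sets of values of the named carriers were checked for a mouse that stood apart from the rest of its group by Dixon's criterion, and 5 were marked. Chance marks about 1 in 20 such sets. Slc25a30 in Mature 1 was 17.5 CPM, with the next Mature mouse at 5.98 CPM. Slc25a30 in ALL 4 was 18.6 CPM, with the next ALL mouse at 11.6 CPM. Slc25a17 was 12.1 CPM in Mature 6 (next 10.8 CPM) and 11.9 CPM in Middle-aged 1 (next 10.4 CPM). Slc25a5 in Mature 5 was 28.9 CPM, with the next Mature mouse at 24.8 CPM.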

How the results depend on the processing

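Of the age differences, that of Slc25a37 stayed called in all 28 settings, of which the prior count of 2 alters only the logFC. Without the 6 libraries that stand apart, Slc25a37 was the 1 carrier still called with age, and 470 of 16696 genes (2.82%) were. With each mouse left out in turn, the calls numbered 3 to 5 with age, 0 between ALL and Middle-aged and 2 to 6 between ALL and Mature. The number of all genes called between ALL and Mature moved as well, to 829 without Mature 3 and 430 without ALL 3. ALL against Mature gave 5 calls as reported (6.5% of all genes). It gave 3 with library size scaling (4.6%), 3 with no filter (2.87%) and 0 with a replicate block (3.68%). With 2 groups only or without the 6 libraries there were 4. The likelihood ratio test and the mitochondrial share as covariate each gave 6, and DESeq2 gave 7. The block left 4 calls with age and 0 for ALL against Middle-aged. Where no share of all genes is given, these counts do not describe the carriers alone. Correlations between mice were taken on the log2 CPM of the genes tested after the group mean of each gene was subtracted. On this measure, same-numbered Middle-aged and Mature mice correlated at -0.18 to 0.15 (6 pairs, median 0.038, 2 over 0.1), differently numbered ones at a median of 0.0035 (36 pairs, 4 over 0.1). For ALL and Mature mice it was -0.038 to 0.13 (4 pairs, median 0.098, 2 over 0.1) against a median of -0.014 (24 pairs, 3 over 0.1). For ALL and Middle-aged mice it was -0.062 to 0.24 (4 pairs, median 0.049, 1 over 0.1) against a median of -0.015 (20 pairs, 2 over 0.1). With so few same-numbered pairs these values do not decide whether the numbers mark pairs. The labels state no pairing, and the main fit used none. The summed CPM moved by more than 1 SD where mitochondrial-genome genes were removed (6043, 6278 and 6572 in Mature, Middle-aged and ALL). Without the 6 libraries it was 4769.7, 4611 and 5394, with Middle-aged below Mature mice, and with single mice left out it ran from 4855 to 4985, 4951 to 5212 and 5276 to 5369.

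Carriers that were not called changed sign in some settings, where the cause was not tested. Without the 6 libraries, the age logFC was -0.067 for Slc25a4, -0.076 for Slc25a5, -0.055 for Slc25a11, -0.033 for Slc25a12 and -0.35 for Slc25a13, and that of ALL against Middle-aged was 0.11 for Slc25a5, 0.17 for Slc25a20, 0.35 for Slc25a22, 0.47 for Slc25a30 and 0.44 for Slc25a34. With the replicate block the age logFC of Slc25a13 was -0.055, and in ALL against Middle-aged and then Mature mice it was -0.22 and -0.28 for Slc25a13, -0.035 and -0.0032 for Slc25a11 and -0.014 for Slc25a28 (ALL against Middle-aged). With the mitochondrial share as covariate it was -0.080 for Slc25a13 (age) and 0.10 for Slc25a30 (ALL against Middle-aged). For ALL against Middle-aged, library size scaling gave -0.019 for Slc25a16 and -0.028 for Slc25a28, and Slc25a37 was at 0.0030 with 2 groups only and 0.0061 without mitochondrial-genome genes. With single mice left out, the age logFC ran from -0.14 to 0.042 for Slc25a20, -0.015 to 0.068 for Slc25a12, -0.0069 to 0.093 for Slc25a11 and -0.029 to 0.34 for Slc25a13. That of ALL against Middle-aged ran from -0.046 to 0.032 for Slc25a37, -0.027 to 0.035 for Slc25a28, -0.25 to 0.20 for Slc25a30, -0.47 to 0.21 for Slc25a13, -0.085 to 0.035 for Slc25a5, -0.046 to 0.072 for Slc25a16 and -0.0026 to 0.077 for Slc25a12, and that of ALL against Mature from -0.31 to 0.36 for Slc25a13.

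Carriers under 100 counts per library, such as Slc25a13, have wide intervals.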
